A study of Mus musculus with 16 samples.

Results

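Of 18203 cells from injured and uninjured mouse spinal cord, 1155 (6.35%) came to the endothelial cells from another cluster between the authors' clustering and their final annotation. They shared a cluster with the cells that ended as Cluster 2, which the authors label as astrocytes. The moved cells carry the final label of Cluster 1, the endothelial cells. These 1155 cells are called the moved cells here, and the markers given for them are Cldn5, Flt1 and Ly6c1. They made up 45.7% of the 2527 cells of their earlier cluster and 27.5% of the 4201 endothelial cells. The other 3046 endothelial cells, placed in Cluster 1 from the start, are called first-pass endothelial cells. The 1213 cells that stayed where they were are called the remaining Cluster 2 cells. Another 159 cells of the earlier cluster went to Cluster 3, the neurons, and are counted in shares of that cluster.

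Each library came from the spinal cord of 1 mouse, aged 8 to 10 weeks, and 16 mice gave 2 libraries for each of 8 conditions. WT mice (Ryk+/+,GFAPcreERT2) and cKO mice (Rykfl/fl,GFAPcreERT2) both carried the tamoxifen-dependent Cre, so the controls differ from the cKO mice in the floxed alleles. The Cre is driven by a GFAP promoter, so vessel cells were not its target. Mice were uninjured or were taken 1, 7 or 14 days after a lesion of the dorsal column at C5. Moved cells were found in 15 mice, and 14 mice had at least 10 of them. The library of the other mouse, WT 1 d replicate 2, held 1 cell in all. Tests used sums of unique transcripts (UMIs) per mouse, as CPM (counts scaled to the same total in every sum), with mice as replicates.

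Endothelial cells line the vessels of the spinal cord and form the blood-spinal cord barrier. Claudin-5 seals the junctions between them, Flt1 is a receptor for Vegf, and Ly6c1 is a surface protein of the capillary wall. Injury tears these vessels, opens the barrier and starts their regrowth, while astrocytes around the vessels help to hold the barrier closed.

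The libraries fell into 2 sets, and the moved cells of the sets stood apart. Replicate 1 of the uninjured, 1 d and 7 d conditions came from 6 mice with animal numbers below 10000 (the low-numbered mice), and the other 10 mice had numbers above it (the high-numbered mice). The low-numbered mice held 496 moved cells, with at least 10 in 5 mice, and the high-numbered mice held 659, with at least 10 in 9 mice. Moved cells had a median of 577 UMIs (220 to 13819). Their median per mouse was 769 UMIs in WT uninjured replicate 1 and 291, 312, 289 and 336 in the low-numbered WT 1 d, cKO 1 d, WT 7 d and cKO 7 d mice. In the 9 high-numbered mice it ran from 585 to 898 UMIs (median 743.5). The 4 low-numbered injured mice thus had the shallowest moved cells, below every other mouse. Both sets held uninjured, 1 d and 7 d mice, all 14 d mice were high-numbered, and the only low-numbered uninjured mouse with enough moved cells was WT. Results are therefore given for the sets apart as well as together. Levels in the moved cells of low-numbered and high-numbered mice are those of the 5 and 9 mice with at least 10 moved cells. They leave out cKO uninjured replicate 1, a low-numbered mouse whose 4 moved cells held 18282 CPM of the endothelial identity list, 9598 CPM of oligodendrocyte and 7313 CPM of neuron genes in 2188 UMIs.

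The label of the moved cells held in the low-numbered mice. Cldn5 stood at 2788, 3484, 2622, 3124 and 2450 CPM in the moved cells of WT uninjured, WT 1 d, cKO 1 d, WT 7 d and cKO 7 d. All 5 values lay near those of the first-pass endothelial cells of the low-numbered mice (mean 2750 ± 380 CPM, s.d., n = 6). In the same order Flt1 stood at 6525, 5828, 6156, 6533 and 6617 CPM and Ly6c1 at 2709, 4167, 4156, 2682 and 3688 CPM. These too were levels of endothelial cells, with first-pass means of 5972 ± 958 CPM for Flt1 and 3089 ± 435 CPM for Ly6c1 (n = 6).

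In the high-numbered mice the label went against the values. Across 9 mice Cldn5 in the moved cells ran from 64.2 to 360 CPM (median 194), Flt1 from 119 to 1591 CPM (median 528) and Ly6c1 from 0 to 330 CPM (median 101). All 9 high-numbered mice lay below the 5 low-numbered mice for all 3 markers. First-pass endothelial cells of the high-numbered mice carried 2916 ± 706 CPM of Cldn5, 6175 ± 1471 CPM of Flt1 and 2328 ± 605 CPM of Ly6c1, so the markers were well measured in these libraries. The remaining Cluster 2 cells of the same 9 mice averaged 27.4 CPM of Cldn5, 73.1 CPM of Flt1 and 41.1 CPM of Ly6c1. In means the moved cells of the high-numbered mice thus stood above the cells they left and far below the cells they joined, in every mouse for Cldn5 and Flt1 but for Ly6c1 in 7 of 9 against the cells they left.

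**Figure D1:**
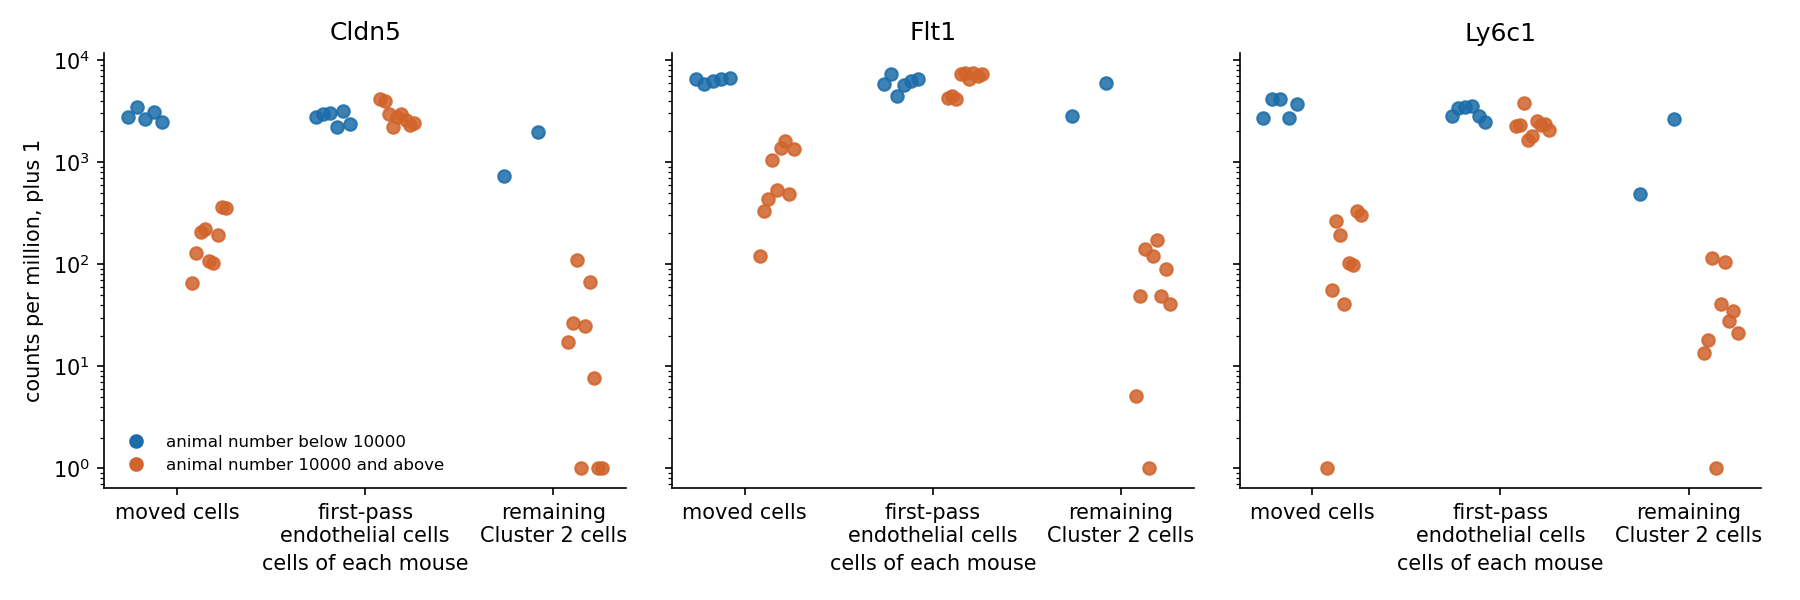
CPM plus 1 of Cldn5, Flt1 and Ly6c1 on a log axis, with 1 point per mouse, in moved, first-pass endothelial and remaining Cluster 2 cells (blue, low-numbered mice; orange, high-numbered mice). Moved cells match the first-pass cells only in the low-numbered mice.

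Counted in cells, the difference was as wide. At least 1 UMI of the 3 markers was found in 478 of 496 moved cells of the low-numbered mice (96.4%; median depth 322.5 UMIs) and in 133 of 659 of the high-numbered mice (20.2%; median depth 696 UMIs). After thinning to 250 UMIs, which left out 52 cells of the low-numbered mice, the shares were 92.1% and 9.71%. First-pass endothelial cells thinned in the same way gave 93.2% in the low-numbered and 90.4% in the high-numbered mice (unthinned 98.7% and 99.7%; median depths 523 and 3381 UMIs). The background, meaning the share in types that do not make these genes, was 5.59% in oligodendrocytes, 8.23% in neurons and 2.39% in microglia of the high-numbered mice after thinning (unthinned 24.5%, 37.9% and 14.1%; median depths 1627, 2274 and 6771 UMIs). The remaining Cluster 2 cells of these mice gave 3.26% (unthinned 9.27%; median depth 849 UMIs). After thinning the moved cells of the high-numbered mice thus lay far below the first-pass endothelial cells and nearest to neurons, and unthinned they lay below oligodendrocytes and neurons. Of these 659 cells, 309 (46.9%) held 0 UMIs of 30 endothelial identity genes, against 0 of 496 in the low-numbered mice, and 42 (6.37%) held at least 10, against 453 (91.3%).

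The identity list as a whole followed its 3 markers. In the moved cells of the low-numbered mice it summed to 48068, 54924, 50870, 54439 and 52623 CPM in the order given above, led by Bsg, Flt1 and Slco1a4. In the high-numbered mice it summed to 889 to 7776 CPM (median 4395), with no overlap between the sets. First-pass endothelial cells held 47553 to 55942 CPM (median 50298) in the low-numbered and 42758 to 48398 CPM (median 46210) in the high-numbered mice, so the first-pass cells differed little between the sets. The remaining Cluster 2 cells differed too, with 13507 and 37418 CPM in the 2 low-numbered mice with at least 10 of them and 411 to 2261 CPM in the high-numbered mice.

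Transcripts of glia and neurons were more abundant in the moved cells of the high-numbered mice. The 10 oligodendrocyte genes, led by Mbp, which codes for myelin basic protein, summed to 7931 to 26347 CPM (median 11806) in the high-numbered and 1660 to 6446 CPM (median 3322) in the low-numbered mice, where Opalin was at 0. The 11 astrocyte genes, led by the glutamate transporter gene Slc1a2 in the high-numbered and by S100b in the low-numbered mice, summed to 4069 to 8285 CPM (median 6590) and to 326 to 949 CPM (median 473), where Slc1a3 and Gjb6 were at 0. The 12 neuron genes, led by the kinesin gene Kif5a in the high-numbered and by Stmn2 in the low-numbered mice, summed to 3245 to 10695 CPM (median 4287) and to 221 to 811 CPM (median 326), where Rbfox3, Slc17a6, Slc32a1, Slc6a5 and Gad1 were at 0. For all 3 lists the 9 high-numbered mice stood above the 5 low-numbered mice. The part of these other-type transcripts in the results was not tested.

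**Figure D2:**
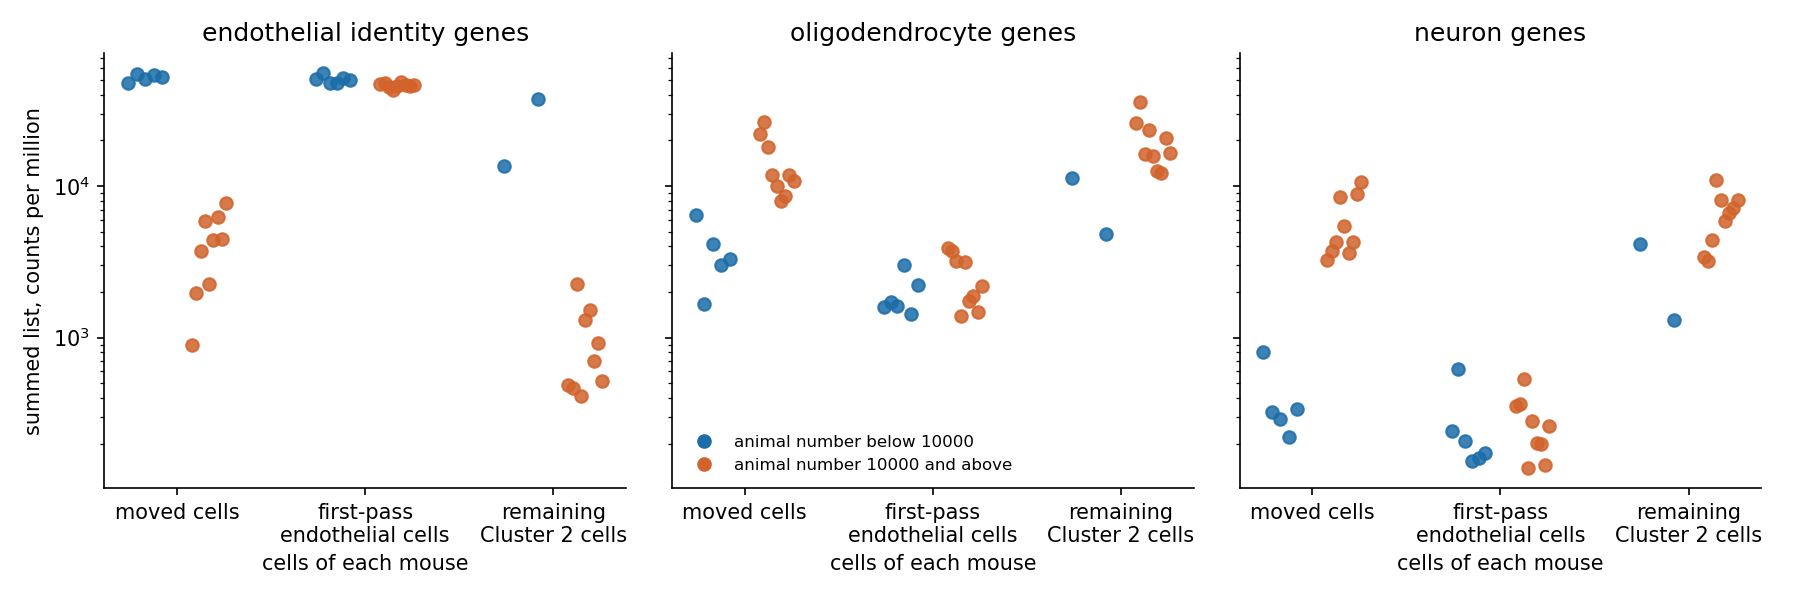
Summed CPM of the endothelial identity, oligodendrocyte and neuron lists on a log axis, with 1 point per mouse, in the 3 populations (blue, low-numbered mice; orange, high-numbered mice). In the high-numbered mice the moved cells lie with the remaining Cluster 2 cells on the oligodendrocyte and neuron lists.

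Counts per cell differed between the sets as well. At least 3 oligodendrocyte UMIs were found in 609 of 659 moved cells of the high-numbered mice (92.4%) and in 95 of 496 of the low-numbered mice (19.2%). At least 3 neuron UMIs were found in 355 (53.9%) and in 5 (1.01%). At least 3 UMIs of both the endothelial and the oligodendrocyte list were found in 91 moved cells of the high-numbered (13.8%) and in 93 of the low-numbered mice (18.8%). Only 58 and 42 moved cells of the high-numbered mice held 3 to 9 and at least 10 endothelial UMIs, so nearly all of these held oligodendrocyte UMIs too. In the low-numbered mice 39 and 453 did, and most of them did not. The 133 moved cells of the high-numbered mice with a marker UMI held 16249 CPM of oligodendrocyte transcripts beside 13221 CPM of the endothelial list. Those without a marker UMI held 16980 CPM and 729 CPM. Pooled over the 9 mice, oligodendrocyte transcripts were thus present in moved cells with and without an endothelial marker. Pericyte genes, led by Rgs5, summed to 410 to 1285 CPM (median 676) in the low-numbered and 18.3 to 2211 CPM (median 163) in the high-numbered mice, with Atp13a5 and Kcnj8 at 0 in the respective sets. Microglial genes stood at 56.3 to 195 CPM (median 88.9), with P2ry12, Tmem119 and Csf1r at 0, and at 330 to 1294 CPM (median 724). Their part in the result was not tested.

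Mitochondrial and nuclear transcripts differed between the sets too. The median mitochondrial percentage of the moved cells was 7.68 to 15.5% across the 9 high-numbered mice (median 10.8%) against 1.63 to 4.18% in their first-pass endothelial cells. Across the low-numbered mice it was 2.64 to 6.19%, the highest in WT uninjured replicate 1. The moved cells of the high-numbered mice thus carried mitochondrial shares like those of the remaining Cluster 2 cells beside them (8.92 to 15.2%). Gm42418, a transcript that overlaps a ribosomal RNA repeat, averaged 105223 CPM in the moved cells of the high-numbered and 5565 CPM in those of the low-numbered mice. It was high in the other populations of the high-numbered mice as well, at 40625 CPM in first-pass endothelial cells (3764 CPM in the low-numbered mice) and 95809 CPM in remaining Cluster 2 cells. Malat1, a nuclear RNA, went the other way in the moved cells, with 4172 CPM and 25375 CPM. It was also low in the remaining Cluster 2 cells of the high-numbered mice (2927 CPM), but not in their first-pass cells (20732 CPM, and 27215 CPM in the low-numbered mice). Haemoglobin transcripts made up more than 50% of the UMIs of 4 moved cells, 1 in WT uninjured replicate 2 (85.8%) and 3 in cKO 7 d replicate 2 (91.9, 94.2 and 94.9%). These cells raised the summed red blood cell list to 36636 and 382253 CPM in the moved cells of those 2 mice. Leaving the 4 cells out still gave 0 called genes over all mice. Which of the called genes named below, the haemoglobin genes among them, would stay without these cells within the high-numbered mice was not tested.

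Vessels can be lost or gained after injury. The moved share does not count vessel cells in the high-numbered mice, where 6.37% of the moved cells held at least 10 identity UMIs. The moved share of all cells was 5.82, 9.61, 1.92 and 10.8% in the 4 uninjured mice (WT replicates 1 and 2, cKO replicates 1 and 2). In the 11 injured mice with enough cells it was 1.97 to 11.04% (median 5.36%), and the groups overlapped. Injured minus uninjured was −1.28 percentage points (exact permutation test, two-sided, with mice shuffled within genotype, p = 0.522, adjusted p = 0.719) and cKO minus WT was −0.755 points (exact permutation test with mice shuffled within day, p = 0.576, adjusted p = 0.719). The direction depended on the libraries. In the high-numbered mice injured minus uninjured was −6.17 points (exact permutation p = 0.05, the smallest possible with 9 mice shuffled within genotype), with 9.61 and 10.8% in uninjured and 1.97 to 7.10% in injured mice. By its cell names the uninjured mouse with 10.8% is a WT 7 d mouse, and when mice were grouped by those names injured minus uninjured over all mice turned to 0.549 points (exact permutation p = 0.787). Injured minus uninjured was 4.80 points in the 6 low-numbered mice (exact permutation p = 0.222, smallest possible 0.111). For cKO minus WT it was 0.238 points in the high-numbered (exact permutation p = 0.75) and −1.72 points in the low-numbered mice (exact permutation p = 0.5, smallest possible 0.25). Among cells with at least 500 UMIs, which keeps at most 5.94% of the moved cells in the 4 low-numbered injured mice, the difference was −4.15 points (exact permutation p = 0.0238, unadjusted).

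**Figure D3:**
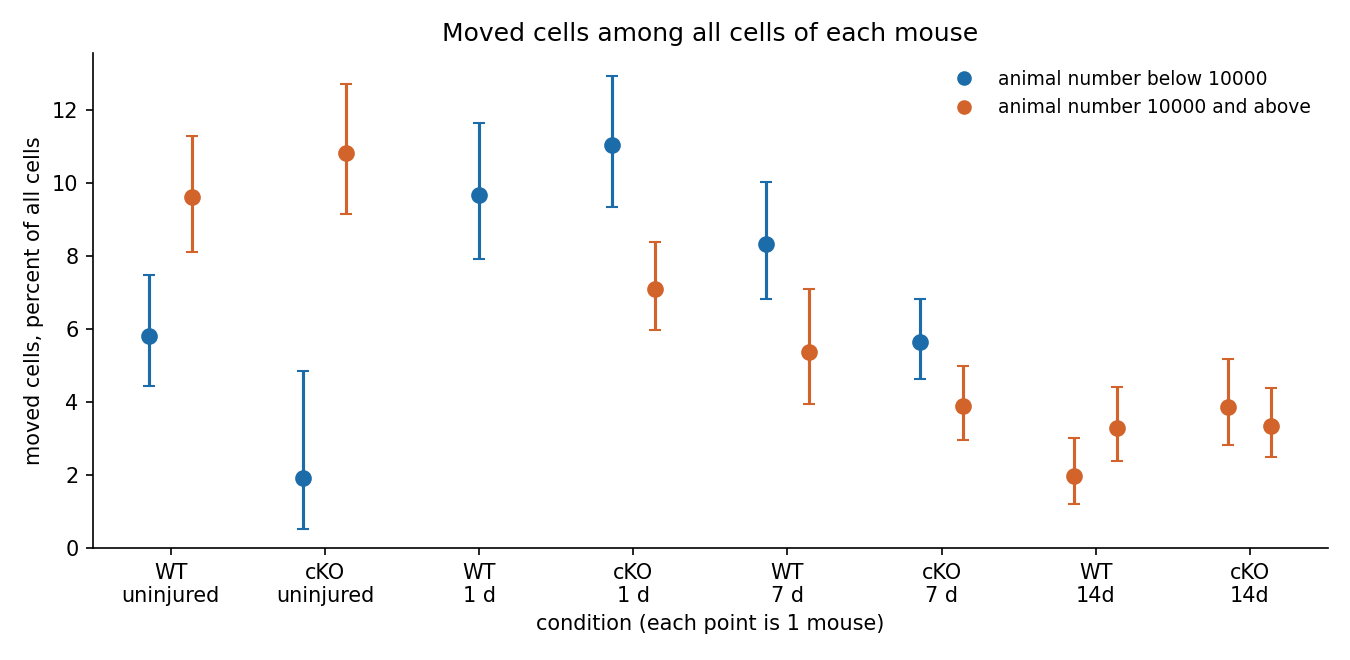
Moved cells as a percentage of all cells per mouse, with exact 95% confidence intervals, by condition (blue, low-numbered mice; orange, high-numbered mice). The sets differ in direction between uninjured and injured mice.

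As a share of Cluster 1 the moved cells stood at 19.1, 39.7, 8.70 and 39.0% in the uninjured mice in the same order, and at 9.52 to 39.0% (median 24.4%) in injured mice, again with overlap. Injured minus uninjured was −2.22 points (exact permutation p = 0.719) and cKO minus WT 2.25 points (exact permutation p = 0.630). Within the high-numbered mice the injured difference was −17.8 points (exact permutation p = 0.1, smallest possible 0.05) and within the low-numbered mice 15.1 points (exact permutation p = 0.111, the smallest possible), and cKO minus WT was 2.00 and −2.10 points (exact permutation p = 0.667 and 0.75). As a share of the earlier cluster the moved cells stood at 74.0, 32.0, 36.4 and 33.9% in uninjured mice. In injured mice they stood at 23.8 to 95.7% (median 38.0%), and all 4 values above 80% belonged to low-numbered mice. Nearly all of that cluster was moved in the low-numbered injured mice, and at most 38.8% of it in the high-numbered mice. Injured minus uninjured was 10.3 points (exact permutation p = 0.551) and cKO minus WT −9.96 points (exact permutation p = 0.560), with all 6 adjusted p at 0.719. Within the high-numbered mice these were −0.567 and 0.495 points (exact permutation p = 0.95 and 0.917), and within the low-numbered mice 37.0 and −10.4 points (exact permutation p = 0.111, the smallest possible, and 1).

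Endothelial cells that were clustered apart from the rest could be a vessel type of their own, such as capillary, arterial or venous cells, or cells in another state. Moved and first-pass endothelial cells of the same mouse were compared to describe this, with no test between clusters. A gene was counted as apart when its log2 difference was in the same direction in every mouse and its mean passed 1 in size. Over 14 mice 112 of 4713 genes (2.38%) were apart, 18 higher and 94 lower in the moved cells, with a median over all genes of −0.39. The sets gave different answers, with 34 of 4594 genes (0.74%) apart in the 5 low-numbered and 1506 of 4941 (30.5%) in the 9 high-numbered mice.

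In the low-numbered mice the moved cells were endothelial cells with fewer transcripts of the immediate early genes, which switch on within minutes of stimulation and also during dissociation of tissue. The list summed to 2946, 5112, 5311, 5333 and 4871 CPM in the moved cells of WT uninjured, WT 1 d, cKO 1 d, WT 7 d and cKO 7 d. In the first-pass endothelial cells of the same mice it summed to 9204, 11158, 10446, 11318 and 12595 CPM. Each mouse thus had fewer of these transcripts in its moved cells, and the ranges did not overlap. Of 16 genes of the list 16 were lower in mean and 11 were apart, with a median log2 difference of −1.22 against −0.06 over all genes. The transcription factor genes Fos (mean 286 against 1027 CPM, −1.87 ± 0.71, s.d., n = 5), Fosb (207 against 812 CPM, −1.81 ± 0.59) and Egr1 (119 against 419 CPM, −1.59 ± 0.65) were among the largest. Junb was the most even, at 265 against 852 CPM (−1.50 ± 0.16).

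Zfp36, which codes for a protein that shortens the life of cytokine transcripts, stood at 75.5 against 360 CPM (−1.87 ± 0.90). Apold1, an endothelial gene of early response, stood at 160 against 544 CPM (−1.58 ± 0.60). The interleukin-1 receptor gene Il1r1, which is typical of veins, stood at 114 against 423 CPM (−1.55 ± 0.43), and the protease gene Adamts1 at 64.2 against 258 CPM (−1.43). The predicted genes Gm20532 and Gm5127 were lower by −1.44 and −1.40. Of these genes Zfp36 belongs to the immediate early list, and all of them were low in the moved cells.

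Venous genes were the other group set apart in the moved cells of the low-numbered mice. Led by Tmsb10 and Vwf, they summed to 1048, 1986, 1600, 1420 and 1858 CPM in moved cells, against 2326, 4264, 3714, 3638 and 3298 CPM in first-pass cells of the same mice in the same order. The moved cells were lower in every mouse without overlap. All 12 genes measured were lower in mean, 5 were apart, and the median was −0.99. Of 19 endothelial inflammation genes, a list that shares Il1r1 with the venous genes, 8 were measured and all 8 were lower (median −0.91). Of these 2 were apart, Il1r1 among them. Barrier genes did not differ in this way. Junction genes were lower in 4 of 10 with 0 apart (median 0.01), transporters in 5 of 21 with 0 apart (median 0.11), capillary genes in 4 of 10 with 0 apart (median 0.07) and arterial genes in 5 of 10 with 0 apart (median 0.00). The moved cells of the low-numbered mice thus kept the transcripts of a capillary barrier and had fewer of veins and of recent stimulation.

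The genes that stood higher in these cells were not vessel genes. Mbp (2179 against 818 CPM, 1.29 ± 0.97) and Slc1a2 (120 against 24.4 CPM, 1.16 ± 0.38) were the only ones apart, and Mobp (0.99), Gm23935 (0.94), S100b (0.93), Fth1 (0.87), Mthfsl (0.79), Celf2 (0.76), Tmem128 (0.75) and Als2cl (0.73) followed without reaching 1. Mbp and Mobp belong to myelin, and Slc1a2 and S100b to astrocytes. A smaller glial share was therefore present in the moved cells of the low-numbered mice too.

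**Figure D4:**
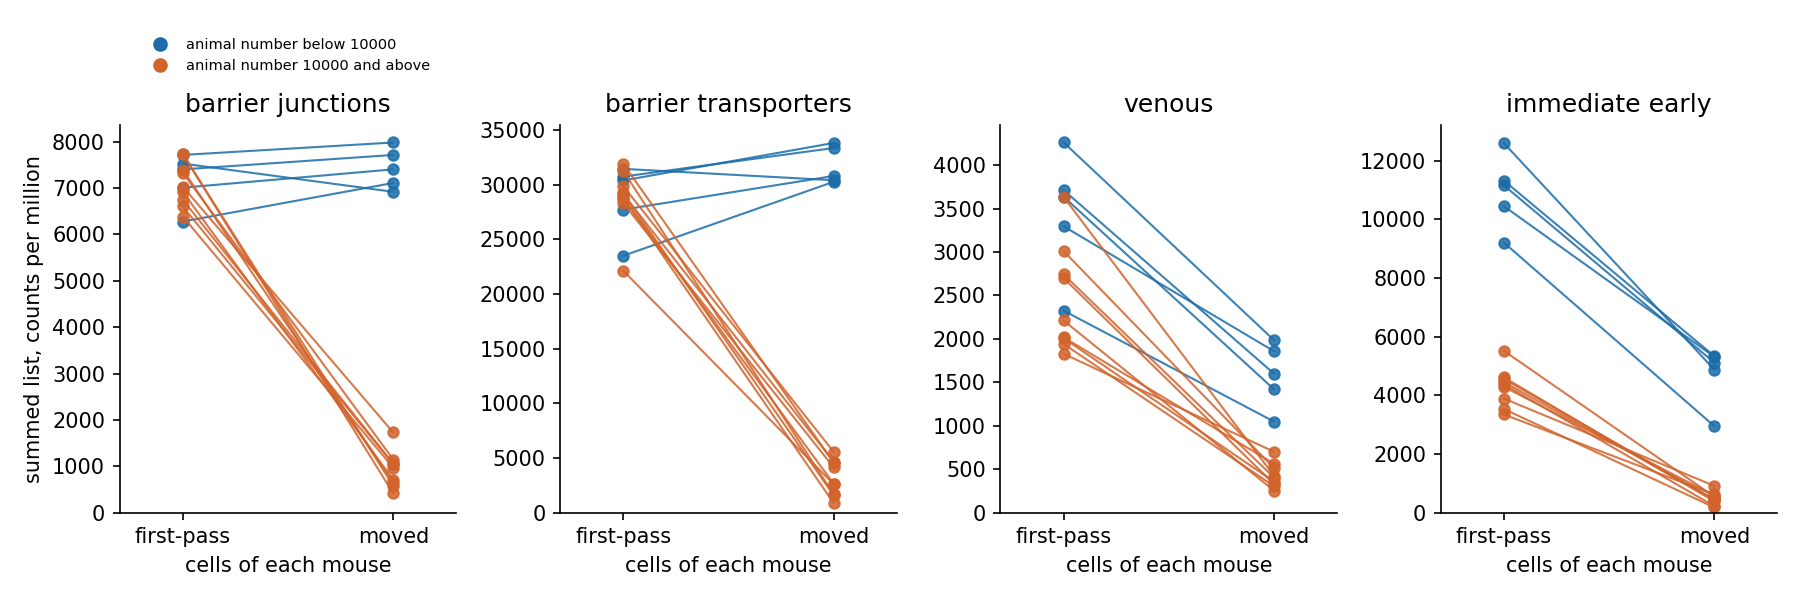
Summed CPM of barrier junction, transporter, venous and immediate early genes in first-pass endothelial and moved cells, with a line for each mouse (blue, low-numbered mice; orange, high-numbered mice). In the low-numbered mice only the venous and immediate early genes drop.

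In the high-numbered mice the moved cells were lower in every barrier gene measured. Junction genes were lower and apart in 10 of 10 (median −2.11), transporters in 21 of 21 (−2.52), capillary genes in 10 of 10 (−2.51) and identity genes in 30 of 30 (−2.98), against −0.49 over all genes. Led by Ctnnb1 and Tjp1, the junction genes summed to 412 to 1728 CPM (median 967) in moved cells and 6387 to 7738 CPM in first-pass cells. The moved cells thus fell short across the whole list and not in a single gene. The largest differences were in Itm2a (mean 109 against 2372 CPM, −3.96 ± 0.75, n = 9), Ly6c1 (154 against 2328 CPM, −3.79 ± 0.98) and Cldn5 (192 against 2916 CPM, −3.71 ± 0.91). They were followed by Ly6a (−3.68), the chemokine gene Cxcl12 (−3.61), Bsg (−3.59), Pltp (−3.54), Adgrl4 (−3.47), and the blood-brain barrier transporter genes Slco1a4 (−3.43) and Abcb1a (−3.34).

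On the high side stood genes of neurons and astrocytes. The microtubule protein gene Map1a stood at 1340 against 34.6 CPM (3.89) and Slc1a2 at 2817 against 162 CPM (3.87). Map2 (3.82), the neurofilament genes Nefl (3.65) and Nefm (3.34), Kif5a (3.58) and Snap25 (3.45), which codes for a synaptic fusion protein, are typical of neurons. Mt3 (3.50) and Aldoc (3.35) are abundant in astrocytes, and C230004F18Rik (3.62) is a noncoding transcript. Moved cells of these mice were thus higher in genes that endothelial cells do not use. Immediate early genes were lower here as well, apart in 15 of 16 (median −1.73), and venous genes in 9 of 11 (−1.25). In these mice both groups fell less than the identity genes (−2.98). In the low-numbered mice the identity genes did not fall (median 0.01), so the lower values of the 2 sets are not alike.

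Over all 14 mice the lower genes were Jun (245 against 977 CPM, −2.41 ± 1.11), Klf4 (142 against 576 CPM, −2.19), the Wnt effector gene Lef1 (383 against 1158 CPM, −2.17), Junb (101 against 499 CPM, −2.16 ± 0.77), Ahnak (−2.15), the Vegf receptor gene Kdr (120 against 528 CPM, −2.10), Fn1 (−2.04), Ly6e (−2.03), Ptprb (681 against 1729 CPM, −2.02) and Vim (−2.01). The higher genes were Slc1a2 (1854 against 113 CPM, 2.90 ± 1.56), Mt3 (2.45), Ckb (2.34), Aldoc (2.27), Mbp (7053 against 1179 CPM, 2.25 ± 1.00), Mobp (2.07), Bcas1 (1.90), S100b (1.89), Fth1 (15057 against 3805 CPM, 1.79) and mt-Nd5 (1.75). The immediate early genes Jun and Junb were lower in both sets, but in the high-numbered mice the identity genes were lower too. Most of the other genes were carried by the high-numbered mice. With cells thinned to 500 UMIs, which keeps 10 mice and only 1 of them low-numbered, 738 genes were apart.

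Cells moved from a cluster to the endothelial cells may differ from those left in it, for example in vessel genes. How the cells were moved is not stated. Moved and remaining Cluster 2 cells were compared in 11 mice with enough of both. Of 3911 genes 28 (0.716%) were apart, 15 higher and 13 lower in the moved cells. The higher genes were Flt1 (mean 1844 against 851 CPM, 2.29 ± 1.35, n = 11), Slco1a4 (1.94), Pecam1 (1.60), Cldn5 (695 against 268 CPM, 1.57), Abhd2 (1.38), Abcb1a (1.35), Adgrf5 (1.33), Adgrl4 (1.25), Ahnak (1.21) and Fry (1.19). The lower genes were Slc1a2 (2333 against 4441 CPM, −1.28), Mt3 (−1.21), Atp1b2 (−1.18), Fabp5 (−1.16), Ndrg2 (−1.14), Gfap (−1.09), Clu (−1.05), Olig1 (−1.05) and Fads1 (−1.02). In these genes the moved cells held more vessel and fewer astrocyte transcripts than the cells left behind. The lower genes depended on single mice, with 3 left without WT 7 d replicate 1 and 6 without WT uninjured replicate 1.

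In the 9 high-numbered mice 13 of 3386 genes (0.384%) were apart, and all 13 were higher in the moved cells. Flt1 led (802 against 73.1 CPM, 2.65 ± 1.19, n = 9), then Slco1a4 (340 against 29.7 CPM, 2.07), Cldn5 (192 against 27.4 CPM, 1.64 ± 1.02), the taurine transporter gene Slc6a6 (1.51), Pecam1 (148 against 11.6 CPM, 1.45), Cyyr1 (1.40), Abcb1a (1.37), Adgrf5 (1.32), Igfbp7 (1.30) and Adgrl4 (1.30). Of 30 identity genes 21 reached the minimum of 50 CPM, several of them only in the moved cells (Kdr at 51.0 against 5.00 CPM). All 21 were higher in mean with 6 apart (median 0.99 against −0.08 over all genes). Transporters had 3 of 15 apart (0.92). A gene that passed the minimum only in the moved cells is higher there by selection, Pecam1 and Cldn5 included, so these directions are given as description. Astrocyte genes were lower in mean in 11 of 11 with 0 apart (−0.54) and oligodendrocyte genes in 9 of 9 (−0.48). Among genes lower in every mouse the lowest were Tubb2b (−0.97), Stmn1 (−0.96), Fabp5 (−0.93), Pacs2, Olig1 and Fabp7 (−0.90 each), none of which reached 1 in size. The moved cells of these mice thus passed this rule against the cells they left in few genes, most of them vessel genes. Among the low-numbered mice only 2 had enough remaining cells, and 2158 of 6347 genes (34%) were apart. With 2 mice of few remaining cells a shared direction is easily met, so this count cannot be set beside that of the 9 mice.

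The signals that shape vessels differed between the sets in the same way as identity. Vegf receptor and co-receptor genes, led by Flt1, Nrp1 and Kdr in the low-numbered mice, summed to 6446 to 7672 CPM (median 7320) in their moved cells and to 339 to 1882 CPM (median 841) in the high-numbered mice. Angiopoietin and Tie genes, led by Ptprb and Tek, summed to 2337 to 2995 CPM (median 2452) and 110 to 718 CPM (median 303). Wnt pathway genes, led by Lef1, which serve to keep the barrier, summed to 3124 to 3711 CPM (median 3535) and 329 to 1004 CPM (median 686). The 5 and 9 mice did not overlap on any of these 3 lists. Interferon-response genes, led by Ifitm3, summed to 2096 to 4828 CPM (median 4330) in the moved cells of the low-numbered mice and 165 to 689 CPM (median 384) in those of the high-numbered mice, which led with B2m. Cell cycle genes were nearly absent from the moved cells, at 28.2 to 65.1 CPM with 11 of 13 genes at 0 in the low-numbered and 0 to 60.5 CPM with 8 of 13 at 0 in the high-numbered mice. Genes of new vessel growth, led by Sparc, stood at 3067 to 4493 CPM with Plvap, Esm1, Pgf and Spp1 at 0 in the low-numbered mice and at 1004 to 1729 CPM in the high-numbered mice. Cell cycle transcripts were thus near or below the floor of 3 counts in the moved cells, which is too few to tell low from absent.

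The other vessel lists followed identity, but less closely where their genes are shared with glia. Notch genes, led by Notch1, summed to 684 to 956 CPM (median 760) in the moved cells of the low-numbered and 93.4 to 357 CPM (median 152) in those of the high-numbered mice. Tgfb and Bmp genes, led by Id3, Bmpr2 and Id1, summed to 3480 to 5311 CPM (median 4364) and 238 to 1016 CPM (median 560), with Bmp6 at 0 in the low-numbered mice. Endothelial inflammation genes, led by Nfkbia and Lcn2, summed to 712 to 2333 CPM (median 821) and 45.8 to 617 CPM (median 101). On these 3 lists the 5 and 9 mice did not overlap. Arterial genes, led by Sox17 in the low-numbered and by Clu in the high-numbered mice, summed to 890 to 1464 CPM (median 1073) and 421 to 1221 CPM (median 677). Glucocorticoid-response genes, led by Mt1 in both sets, summed to 1464 to 2800 CPM (median 1856) and 845 to 4921 CPM (median 1502). The sets overlapped on both, and Clu and Mt1 are abundant in astrocytes. Genes of other types of the cord were scarce in the moved cells, with at most 94.7 and 505 CPM for oligodendrocyte precursors (led by Ptprz1 in the high-numbered mice; Pdgfra and Cspg5 at 0 in the low-numbered mice), 28.2 and 187 CPM for fibroblasts, 63.1 and 532 CPM for myeloid cells, 0 and 50.5 CPM for ependymal cells, and 63.1 and 278 CPM for Schwann cells in any of the 5 low-numbered and 9 high-numbered mice. Their part in the result was not tested.

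Injury is known to bring acute inflammation to vessels within 1 day and regrowth over the next 2 weeks. Whether the moved cells changed was tested per gene across 14 mice. In edgeR's quasi-likelihood test, adjusted by Benjamini-Hochberg, 0 of 1116 genes (0%) were called for injured against uninjured mice, with 51 at an unadjusted p under 0.05. In DESeq2 1 gene was called, and edgeR with the size factors of DESeq2 called 0. The lowest p belonged to Gphn, which codes for a scaffold of inhibitory synapses, with 494, 16973 and 24867 CPM in uninjured and 422 to 4951 CPM (median 2793) in injured mice. Its uninjured values split by set, the low one being the low-numbered mouse, and overlapped with the injured ones (log2 −3.44, adjusted p = 0.865). Qdpr (−2.42), Bcas1 (−2.54), Gm23935 (−2.64) and Rps3 (−1.26) came next, all lower after injury in the moved cells and all with an adjusted p of 0.865.

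The days taken singly gave no call either. At 1 d, 7 d and 14 d edgeR called 0, 0 and 0 of 1116 genes (0%), with 50, 17 and 22 at an unadjusted p under 0.05. In DESeq2 0, 0 and 2 were called, and in edgeR with the size factors of DESeq2 0 each. That scaling moved the median over all genes at 1 d from −0.08 to 0.15. The lowest p at 1 d was that of Dync1li2 (−2.49), followed by Qdpr (−3.65), Bcas1 (−3.78), Rps3a1 (−1.67) and Gphn (−4.34), all with an adjusted p of 0.906. At 7 d it was that of Fos (3.70), followed by Gphn (−3.37), Rps27a (−1.23), Npm1 (−1.54) and Stmn1 (−1.83), with an adjusted p of 0.998. At 14 d it was that of the junction gene Jam2 (−2.84), followed by Hba-a1, Selenok (−1.49), Hbb-bs and Akap12 (2.46), with an adjusted p of 0.992. None of these genes passed the adjusted test in the moved cells.

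Over the 14 mice the vessel lists stayed near the median of all genes after injury (−0.18). Identity genes were higher in 12 and lower in 16 of 28 tested (median −0.13), junction genes higher in 4 of 8 (−0.11) and transporters in 11 of 17 (0.03). Immediate early genes were higher in 6 of 8 (0.47). Astrocyte and oligodendrocyte genes were lower in 4 of 4 each (−1.45 and −1.71), and mitochondrial genes in 11 of 12 (−0.49). None of these genes passed the test in the moved cells, and the comparison mixes sets that differ in glial transcripts.

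With the set of the libraries in the model, calls appeared. Of 1422 genes 26 (1.83%) were called for injury, 1 higher (0.0703%) and 25 lower (1.76%), with 161 at an unadjusted p under 0.05, but in none of them were the injured and uninjured mice without overlap. The glial genes Slc1a2, S100b, Mobp and Mbp were among those that fell in the moved cells. Identity genes were higher in 22 of 29 (median 0.41 against −0.08 over all genes) with 0 called. By day 1 (0.0703%), 8 (0.563%) and 33 (2.32%) genes were called at 1 d, 7 d and 14 d, 2 of them higher (0.141%), both at 14 d. At 14 d the 3 called genes without overlap were Gm10800 (152 to 310 CPM against 0, 0 and 19.8 CPM, fold not given, adjusted p = 0.0457 in edgeR's quasi-likelihood test, adjusted by Benjamini-Hochberg), a repeat-derived transcript that rose, and the haemoglobin genes Hba-a2 and Hbb-bs, which were lower. The uninjured level of Hba-a2 (19.8, 4931 and 9.14 CPM) was highest in WT uninjured replicate 2, whose red blood cell list went from 36636 to 478 CPM without its 1 haemoglobin-rich cell, and this fit was not repeated without it.

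Within the high-numbered mice 2 uninjured could be set against 7 injured. All 6 mice whose cell names give another condition than the titles are high-numbered, and by the names 1 of these 2 uninjured mice is a WT 7 d mouse and the other a cKO mouse. The set was not fitted under those names. Both uninjured libraries also stand apart, with medians of 1057 and 1040.5 UMIs over all their cells against 1514 to 3637. Their moved cells had medians of 308 and 306 genes against 428 to 620. The list of nuclear long non-coding RNAs, which holds Gm42418, summed to 190268 and 210489 CPM in them against 39870 to 148876 CPM. Gm42418 alone reached 208880 CPM in the moved cells of the high-numbered mice, so the list does not show that nuclear RNA was higher. Injury and library cannot be told apart here. The moved cells of these 9 mice are the ones rich in glial transcripts, so a change here need not be a change in vessel cells. In edgeR's quasi-likelihood test, adjusted by Benjamini-Hochberg, 85 of 1561 genes (5.45%) were called, 9 higher and 76 lower after injury. Genes are named below where the groups did not overlap, which called genes meet easily with 2 uninjured mice. The share without overlap over all tested genes was not counted. DESeq2 called 69, and edgeR with the size factors of DESeq2 called 63, with 9 higher and 54 lower.

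The largest falls in the moved cells without overlap were in 5 genes. Cdk8, which codes for a kinase of the Mediator complex, stood at 39680 and 41879 CPM in uninjured and at 3184 to 7327 CPM (median 5848) in injured mice. The uninjured mice were far above every injured one (log2 −3.43 ± 0.40, s.e., adjusted p = 4.79e-05 in edgeR's quasi-likelihood test, adjusted by Benjamini-Hochberg). Gphn stood at 16973 and 24867 CPM against 2193 to 4951 CPM (median 3453) in injured mice. It too fell without overlap (−3.21 ± 0.38, adjusted p = 5.13e-05). Cmss1 stood at 33434 and 36325 CPM against 4901 to 10659 CPM (median 8399). All injured mice were low (−2.73 ± 0.39, adjusted p = 0.000235). Gm19951 stood at 1527 and 1888 CPM against 169 to 824 CPM (median 303), again with no overlap (−2.96 ± 0.33, adjusted p = 4.54e-05). Pdlim2 stood at 367 and 402 CPM against 0 to 275 CPM (median 52.8) and fell in all injured mice (−3.45 ± 0.55, adjusted p = 0.000839).

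The fall of Cdk8 was not particular to the moved cells. Cdk8 stood at 45676 and 43556 CPM in the remaining Cluster 2 cells of the uninjured and 4054 to 11324 CPM in those of the injured mice, and at 14997 and 14101 CPM against 1221 to 8165 CPM in first-pass endothelial cells. Both uninjured libraries were thus high for Cdk8 in all 3 populations. In the high-numbered mice Gphn ran from 3655 to 23075 CPM in remaining Cluster 2 and 1164 to 7069 CPM in first-pass cells. For Cmss1 the ranges were 5513 to 34151 CPM and 1706 to 14665 CPM. How these ranges split by injury is not given here. With the set in the model Gm42418 was also called lower after injury in the moved cells (log2 −2.03).

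Fewer genes rose in the moved cells of these mice. Gm26870 stood at 45.8 and 128 CPM in uninjured and at 1506 to 3833 CPM (median 2125) in injured mice. Every injured mouse was high (4.20 ± 0.47, adjusted p = 4.54e-05 in edgeR's quasi-likelihood test, adjusted by Benjamini-Hochberg). Gm26870 also ranged widely in the other populations of these mice, from 33.3 to 1026 CPM in first-pass and 37.1 to 1808 CPM in remaining Cluster 2 cells. Gm10800, at 0 CPM in both uninjured and at 137 to 310 CPM (median 163) in injured mice, had an adjusted p of 0.00182, and its fitted fold is no bound and is not given. Mast4 stood at 9.14 and 18.3 CPM against 30.0 to 423 CPM (median 140), Nrg3, which codes for a neuregulin made by neurons, at 18.3 and 27.4 CPM against 92.5 to 411 CPM (median 180), and Tspan5 at 27.4 and 27.5 CPM against 66.1 to 455 CPM (median 210). All 3 were higher in every injured mouse, though for Mast4 the lowest injured value lies below the floor of 3 counts (3.32 ± 0.78, 2.53 ± 0.65 and 2.32 ± 0.61, adjusted p = 0.0149, 0.0294 and 0.031). In the 2 uninjured mice any value under 27.4 CPM rests on fewer than 3 counts.

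As lists, 17 of 30 identity genes had enough counts to be tested in the high-numbered mice. All 17 were higher after injury (median 1.08 against 0.08 over all genes) with 0 called. A gene could pass this filter through the injured mice alone, so the directions of the vessel lists are given as description. Transporters were higher in 13 of 14 (0.83) and junction genes in 3 of 4 (0.66). Astrocyte genes were lower in 7 of 7 with S100b called (−1.03), and oligodendrocyte genes in 6 of 8 with Mobp and Mbp called (−0.71). The summed identity list stood at 889 and 1975 CPM in the moved cells of uninjured and 2246 to 7776 CPM in those of injured mice, and the oligodendrocyte list at 22118 and 26347 CPM against 7931 to 18028 CPM. Neither list overlapped, but the astrocyte list did (7984 and 7380 CPM against 4069 to 8285 CPM), and so did the neuron list (3245 and 3731 CPM against 3637 to 10695 CPM). Without its 3 haemoglobin-rich cells cKO 7 d replicate 2, an injured mouse, stood at 3707 instead of 2246 CPM for the identity list, 16069 instead of 10001 CPM for oligodendrocyte, 6503 instead of 4069 CPM for astrocyte and 9122 instead of 5496 CPM for neuron genes. A change in vessel genes and a change in the mixture of transcripts cannot be told apart here. Ribosomal protein genes, a group chosen after the values were seen, were lower in 78 of 79 with 30 called (−1.03), and in 77 of 79 with 19 called under the size factors of DESeq2 (−0.96). They went the other way in the low-numbered mice, with 6 of 73 lower and 5 called higher at 1 d (0.65) and 12 of 73 lower and 3 called higher at 7 d (0.69), and with the set in the model 0 of 78 were called. Their summed CPM overlapped, at 59863 and 63274 in uninjured and 31600 to 71070 (median 61446) in injured mice, and the scaling factors differed between the groups, at 0.578 and 0.624 in uninjured and 0.661 to 1.31 in injured mice.

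By day, 42 (2.69%), 25 (1.6%) and 59 (3.78%) genes were called in the moved cells of the high-numbered mice at 1 d, 7 d and 14 d, by DESeq2 44, 55 and 76. At 1 d only 1 mouse was left, whose spread is taken from the other groups, so its values are given as description. Of its genes 20 were higher (1.28%) and 22 lower (1.41%), against 24 and 18 with the size factors of DESeq2. That mouse held 774 CPM of Cdh23 against 0 and 9.14 CPM in uninjured mice, with Nav2 and Mast4 also high, and 1572 CPM of Mir6236 against 11513 and 14766 CPM, with Qdpr at 193 CPM against 1134 and 1155 CPM. At 7 d 3 genes were higher (0.192%) and 22 lower (1.41%). Gpx1, which codes for an antioxidant enzyme, stood at 110 and 396 CPM against 9.17 and 27.4 CPM. It rose without overlap (3.41, adjusted p = 0.0333 in edgeR's quasi-likelihood test, adjusted by Benjamini-Hochberg). However, 1 of the 7 d mice is cKO 7 d replicate 2, whose 3 haemoglobin-rich cells held 4161, 12660 and 13819 of its 75696 moved-cell UMIs. Gpx1 was not tested without these cells. Mbd2 stood at 0 CPM in both 7 d mice against 165 and 330 CPM, and Bcan, a gene of the glial matrix, fell by 3.12. At 14 d 6 of the 59 genes were higher (0.384%) and 53 lower (3.4%). Pecam1, which codes for an adhesion protein of the endothelial junction, stood at 150 to 354 CPM (median 231) against 9.17 and 27.4 CPM. It was the only vessel gene of the lists to rise in the moved cells of the high-numbered mice at any day (2.76 ± 0.72, adjusted p = 0.0341). Of the identity genes that passed the filter, 17 of 17 were higher at 7 d and at 14 d (medians 1.11 and 1.20 against 0.12 over all genes). At 1 d 14 of 17 were higher (0.62 against 0.00). Here too a gene could pass through the injured mice alone.

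In the low-numbered mice the moved cells are endothelial, but 1 uninjured mouse, with a deeper library, stands against 4 injured ones, so injury and library cannot be told apart. The lone mouse is assumed to vary like the other groups, 1 residual degree of freedom is left, and the genes are given as description. Of 1067 genes 42 (3.94%) were called at 1 d, 19 higher (1.78%) and 23 lower (2.16%), and 55 (5.15%) at 7 d, 13 higher (1.22%) and 42 lower (3.94%). Lcn2, which codes for lipocalin-2, an acute-phase protein of inflamed vessels, stood at 488 and 845 CPM at 1 d against 0 CPM in the uninjured mouse. Interferon-response genes were higher in 5 of 6 tested at 1 d (median 0.88) and in 6 of 6 at 7 d (1.29), but only Ifitm3 was called at each day. Fos stood at 338 and 442 CPM at 7 d against 39.5 CPM, which is below the floor of 3 counts in the uninjured mouse (59.3 CPM). The glucocorticoid-response gene Zbtb16 stood at 84.5 and 252 CPM at 7 d against 811 CPM. Fos was thus higher and Zbtb16 lower in the moved cells of both 7 d mice than in those of the uninjured mouse.

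The other genes of largest difference in these mice had various roles. At 1 d Rps6 (444 and 586 CPM against 39.5 CPM, again below the floor), Snx3 (2.29), Rps7 (2.23) and Rps19 (2.20) were higher, and mt-Atp8 (−3.06), Dync1i2 (−2.47), Pkp4 (−2.20) and Cdk8 (−2.20) were lower. At 7 d mt-Atp6 (3.44), Rps7 (2.36), Camk1d (2.18) and Rpl18 (1.91) were higher, and mt-Atp8 (−3.34), Prkcb (−3.26), Nbea (−3.06) and S100b (−2.70) were lower. Identity genes were higher in 16 and lower in 14 of 30 at 1 d (median 0.11 against −0.05 over all genes), with Ly6a called higher and Slco1a4 called lower. At 7 d they were higher in 15 of 30 (0.02 against 0.00), with the glucose transporter gene Slc2a1 called lower. The identity genes of the moved cells thus went in both directions against the lone uninjured mouse.

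Loss of Ryk in astrocytes could reach vessels through the astrocyte endfeet that lie on them. In the moved cells edgeR's quasi-likelihood test called 0 of 1116 genes (0%) for cKO against WT, with 2 at an unadjusted p under 0.05. In DESeq2 it was 0 as well, with 12. The lowest p were those of Nav2 (−1.99 ± 0.88, s.e.), Med13l (−1.79), Asap1 (−1.28), Ahcyl1 (1.21) and Tspan5 (−1.39), each with an adjusted p of 0.945. Identity genes were lower in 26 of 28 over all mice (median −0.55 against −0.03 over all genes), but higher in 11 of 17 within the high-numbered mice (0.22 against 0.00) and in 15 of 29 with the set in the model (0.04 against 0.02). The lean of the identity list towards WT was thus not seen once the sets were held apart.

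Within the high-numbered mice 0 of 1561 genes (0%) were called for cKO against WT by edgeR, with 49 at an unadjusted p under 0.05. In DESeq2 0 were called, with 28. By the cell names 3 of these 9 mice have the other genotype (replicate 2 of WT uninjured, cKO uninjured and WT 14 d). With the set in the model 0 of 1422 (0%) were called, with 20 at an unadjusted p under 0.05. Within the low-numbered mice 2 of 1067 genes (0.187%) were called in the moved cells, the mitochondrial gene mt-Nd3 and Mbp. For mt-Nd3 the cKO mice held 1999 and 2022 CPM and the WT mice 252, 475 and 1237 CPM. Both cKO mice were the higher ones (log2 1.53).

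The moved cells might answer injury as the first-pass endothelial cells do, or differently. Whether the injury response of the moved cells differed from that of first-pass endothelial cells was tested in the same mice. In edgeR's quasi-likelihood test, adjusted by Benjamini-Hochberg, 0 of 5525 genes (0%) were called, with 94 at an unadjusted p under 0.05. In DESeq2 0 were called, with 135. The lowest p were those of the guidance gene Ntn1 (−3.90), Hnrnph3 (−1.93), Gm13340, Azi2 and Yipf1. Within the high-numbered mice 3 of 7830 genes (0.0383%) were called, Hbb-bt, Hba-a1 and Ttn. Within the low-numbered mice, where the lone uninjured mouse is assumed to vary like the other groups, 6 of 4013 (0.15%) passed and are given as description, Icam1, Mbp, Fth1 (−2.07), Tshz2 (−1.65), Gm42418 (−1.57) and mt-Nd2. In the moved cells Icam1, which codes for an adhesion protein for leukocytes, stood at 138 CPM in the uninjured mouse and 0 to 44.4 CPM in injured ones. No further gene of the moved cells was called.

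Ryk, the gene deleted in the cKO mice, codes for a Wnt receptor, and its level in vessel cells bears on whether they could be touched directly. In the moved cells of the low-numbered mice it stood at 19.8, 65.1 and 63.1 CPM in WT uninjured, 1 d and 7 d and at 44.4 and 28.2 CPM in cKO 1 d and 7 d. In the high-numbered WT mice it stood at 27.5 (uninjured), 27.5 (7 d), 50.5 and 19.4 CPM (14 d), and in the cKO mice at 9.14 (uninjured), 24.2 (1 d), 26.4 (7 d), 90.1 and 23.4 CPM (14 d). The 4 moved cells of cKO uninjured replicate 1 held 0 Ryk UMIs among 2188, where 3 counts would be 1371 CPM. WT and cKO values overlapped, the genotype of 3 high-numbered mice is in doubt, and the values rest on 8 UMIs in the low-numbered and 15 in the high-numbered mice. A Ryk UMI was seen in 1.61% and 2.28% of the moved cells. Whether the reads cover the deleted exons is not known, so these values do not check the deletion.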

How the data were processed

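Raw UMI counts of 55487 genes in 18203 cells were used as deposited. The authors made these counts with Cell Ranger on mm10 (GRCm38), and clustered the cells with Seurat and Harmony in R 4.1.2. The percent values for mitochondrial and haemoglobin transcripts were deposited by the authors as shares of the UMIs of each cell. Of the deposited cells 0 had 25% or more mitochondrial UMIs and 0 had 200 genes or fewer, as the authors' filter asks. No doublet caller was run and no cell was removed. Barcodes numbered 17937, and 166 of them occurred in more than 1 library (432 cells, 43 of them moved cells, and 9 barcodes as moved cells in more than 1 library). In 6 mice, all with animal numbers of 10000 and above (WT uninjured 2, cKO uninjured 2, WT 1 d 2, WT 7 d 2, WT 14 d 2 and cKO 14 d 2), the cell names give another condition than the sample titles. The titles were used, and the names were tried as an alternative.

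The moved cells are those whose final label is Cluster 1 and whose first-pass cluster number, at resolution 0.5, is the most frequent in the final Cluster 2. Counts were summed per mouse with at least 10 cells of a population and fitted with edgeR 4.0.16 (TMM factors, filterByExpr, quasi-likelihood test, day and genotype additive, R 4.3.3), with DESeq2 1.42.0 as an alternative. The adjusted p is that of Benjamini-Hochberg, called under 0.05. The injury comparison of populations had the mouse as a block. The summed UMIs of moved cells were 19795 to 109350 per mouse in the 14 mice tested, where 3 counts, taken as the floor, are 27.4 to 152 CPM. Shares were compared with exact two-sided permutation tests over mice with at least 50 cells (injury shuffled within genotype, genotype within day), 6 tests adjusted together. Populations were described with 50 CPM added before log2 in genes of at least 50 CPM in the mean of either. Cells were thinned at random with Python 3.11.15, numpy 2.4.6, pandas 2.3.3 and scipy 1.17.1 (seed 20), and figures were made with matplotlib 3.10.9. The scripts were tested on simulated data.

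The deposited batch column equals the replicate number in 16 of 16 mice, and this column is the source of the pairing. Deviations of same-numbered mice from their condition means correlated at 0.788 to 0.860 among the 4 conditions whose replicate 1 is a low-numbered mouse, and at −0.269 to −0.0276 in pairs with a 14 d condition, over 1116 genes.

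The 30 lists held 355 genes. Named genes were Cldn5, Flt1, Ly6c1 and Ryk, the 2 to 4 most abundant members of a list, up to 5 called genes in each direction whose mice do not overlap (with no call, the 5 of lowest p), and for each pair of populations up to 10 genes in each direction. Other genes and the ribosomal protein group were chosen after the values were seen. The members and lists were chosen with earlier results of these data known. Gene positions are those of GENCODE vM21 on mm10: Cldn5 chr16:18776847-18778262 (plus strand), Flt1 chr5:147561604-147726011 (minus strand), Ly6c1 chr15:75044018-75048830 (minus strand) and Ryk chr9:102834917-102908305 (plus strand).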

Additional observations from a re-analysis of the deposited data

Results flagged for a closer look

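A mouse was looked at more closely where its value lay far from the others of its group by a test for a single outlying value, and 5 of 59 groups held such a mouse, where chance alone gives about 1 in 20. The red blood cell list summed to 382253 CPM in the moved cells of cKO 7 d replicate 2, against at most 379 CPM in the other 7 d mice and 1270 CPM in the other cKO mice. It summed to 36636 CPM in WT uninjured replicate 2, against at most 379 CPM in the other WT mice. In these 2 mice 3 cells and 1 cell held mostly haemoglobin transcripts. It summed to 58.2 CPM in WT 14 d replicate 2, against 0 CPM in the other 14 d mice. The moved share of the earlier cluster was 74.0% in WT uninjured replicate 1, against at most 36.4% in the other uninjured mice. This mouse is a low-numbered one.

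The difference in the moved share of all cells between injured and uninjured mice drew notice because its direction was opposite in the 2 sets of libraries. It was 4.80 percentage points in the low-numbered mice and −6.17 points in the high-numbered mice. The difference between the sets was not tested.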

How the results depend on the processing

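Only 3 uninjured mice had enough moved cells, and the low-numbered set had 1 of them. Alternatives by animal number, without haemoglobin-rich cells and with other tools within a set were chosen after the data were seen. Of the alternatives for counts of called genes 48 stayed the same and 29 gave more, and leaving out each mouse gave 0 calls throughout (84 fits). Where not said otherwise the cause was not tested.

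In order of injured, 1 d, 7 d and 14 d, calls numbered 85, 42, 25 and 59 in the high-numbered mice, 69, 44, 55 and 76 there with DESeq2, 63, 42, 20 and 51 with the size factors of DESeq2, and 26, 1, 8 and 33 with the set in the model. In the low-numbered mice they were 42 (1 d), 55 (7 d) and 2 (cKO). Over all mice DESeq2 gave 1 (injured) and 2 (14 d). With no filter except at least 1 count they were 14, 4, 1 and 4, and 1 for cKO. The injury response against first-pass cells had 1 call with no filter, 3 in the high-numbered and 6 in the low-numbered mice.

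Genes apart from first-pass cells (112) numbered 171 with 10 CPM added, 33 with 200 CPM, 738 after thinning to 500 UMIs, 34 in the low-numbered and 1506 in the high-numbered mice, and 106 to 164 with each mouse left out. Genes apart from the remaining Cluster 2 cells (28) numbered 3 with 200 CPM, 15 after thinning, 2158 in the low-numbered and 13 in the high-numbered mice, and 17 to 37 with each mouse left out.

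Shares turned direction in 11 alternatives, stayed the same in 18, and in 1 kept their direction and passed 0.05 unadjusted (cells of at least 500 UMIs, injured minus uninjured −4.15 points of all cells, exact permutation p = 0.0238). Among those that turned, with the conditions of the cell names injured minus uninjured was 0.549 (all cells), 4.10 (Cluster 1) and −1.08 points (earlier cluster). In the low-numbered mice it was 4.80 and 15.1 points for all cells and Cluster 1, and cKO minus WT was −2.10 points of Cluster 1. In the high-numbered mice cKO minus WT was 0.238 (all cells) and 0.495 points (earlier cluster), and injured minus uninjured −0.567 points of the earlier cluster. With cells of at least 500 UMIs, injured minus uninjured was −11.7 points of the earlier cluster, and cKO minus WT 0.506 points of all cells. With each mouse left out, injured minus uninjured ran from −3.50 to 0.949 (all cells), −9.79 to 5.34 (Cluster 1) and −0.242 to 20.7 points (earlier cluster), and cKO minus WT from −1.87 to 0.358, −1.53 to 6.03 and −17.4 to −2.47 points.

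Of the named genes of the tests 310 values kept their direction and result, 49 passed the test where they had not, and 4 turned: in the low-numbered mice Rps3a1 at 1 d (0.86), Gphn (0.21) and Rps27a (0.25) at 7 d, and Rps27a (0.021) at 7 d in marker-positive cells. Of the genes between populations 249 stayed and 29 moved. The replicate block left 0 calls in every comparison and changed no call, with −1.28 points for the injured share of all cells (exact permutation p = 0.557).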
